A study of Homo sapiens with 6 samples.

Results

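The chemokines described here were 10 genes of the CXC and CC families chosen by name, namely CXCL1, CXCL2, CXCL3, CXCL5, CXCL8, CXCL10, CXCL16, CCL2, CCL5 and CCL20. The choice was made with earlier results of these data known. A gene was taken where its symbol stood in the gene column of the deposited expression table, and 7 of the 10 had a row, out of 16258 genes in all. CXCL5, CXCL10 and CCL5 had no row and were not analysed here. All 7 genes with a row passed the filter on low values (a mean of at least 10 over the 6 libraries), which left 15786 genes for the tests.

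MDA-MB-231, an established human triple-negative breast cancer line that grows as spindle-shaped, motile cells, was the only line, and it was cultured in DMEM with serum. The migratory group held highly motile cells collected from microfluidic devices, and the unsorted group (the control) held cells that were not selected. Each group had 3 libraries, each made from 1000 cells, and no genetic change or drug was recorded for either group. The sources used here do not give the time that cells of either group spent in a device, so an effect of the device and a property of motile cells cannot be told apart. The labels do not say that the libraries came from separate cultures, so a p-value reflects the spread among these libraries alone, which may be technical.

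Chemokines are small secreted proteins that steer moving cells through G protein-coupled receptors, and the CXC and CC families are named by the spacing of their first conserved cysteines. CXCL1, CXCL2, CXCL3 and CXCL8 (interleukin-8) act on the receptor CXCR2, and CXCL8 also acts strongly on CXCR1, and they are best known for drawing neutrophils into tissue. CCL2 draws monocytes through CCR2, CCL20 acts through CCR6, and CXCL16 is made as a membrane-bound protein that binds CXCR6. Several of these genes are classical targets of the transcription factor NF-kB, and their messages are short-lived because AU-rich elements in the 3′ UTR recruit decay factors. Breast cancer cells, MDA-MB-231 among them, are known to secrete several of them.

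The upstream sequences were searched for matches of NF-kB and other motifs. Several of the genes were already known as NF-kB targets, so the matches are no independent finding. The first 4 sequences are shown because CXCL1, CXCL2 and CXCL3 carry almost the same stretch around an NF-kB match while CXCL8, which lies in the same gene cluster, carries a shorter match in other surroundings. The last is the NF-kB match of a CC gene. Each is written 5′ to 3′ along the gene's own strand, with the match in capitals (the NF-kB consensus for CXCL1, CXCL2, CXCL3 and CCL20, and GGAATTTCC for CXCL8).
CXCL1: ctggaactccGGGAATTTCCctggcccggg
CXCL2: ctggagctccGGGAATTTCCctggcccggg
CXCL3: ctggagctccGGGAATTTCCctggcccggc
CXCL8: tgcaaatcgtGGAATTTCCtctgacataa
CCL20: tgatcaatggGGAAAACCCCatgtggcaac

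These windows come from RefSeq on GRCh38.p14. The CXCL1 window lies at chr4:73869304-73869333 on the plus strand and its match begins 79 bases before the start of transcription. The CXCL2 window lies at chr4:74099254-74099283 on the minus strand, with its match 78 bases before the RefSeq start and inside a UTR of a longer annotated transcript. The CXCL3 window lies at chr4:74038749-74038778 on the minus strand, with its match 79 bases before the start. The CXCL8 window lies at chr4:73740468-73740496 on the plus strand, 91 bases before the start. The CCL20 window lies at chr2:227813753-227813782 on the plus strand, 79 bases before the start, and there the consensus was matched on the opposite strand. Of 30 bases, the CXCL1 and CXCL2 windows shared 29, CXCL2 and CXCL3 shared 29, and CXCL1 and CXCL3 shared 28.

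Promoters of 7 of the 10 listed genes were found in RefSeq (CXCL1, CXCL2, CXCL3, CXCL5, CXCL8, CXCL10 and CCL20), and the 250 bases before each start were searched on both strands. The NF-kB consensus was matched in 6 of the 7, all but CXCL8, against 5.21% of 35116 promoters of the same length. CXCL1, CXCL2 and CXCL3 carry almost the same window, so the 7 are not independent of each other. CXCL5 and CXCL10 had no expression values here, and no promoter was found for CCL2, CCL5 or CXCL16. GGAATTTCC, which can lie inside a match of the consensus, was found in 6 of the 7, all but CCL20, against 0.413% of promoters. The AP-1 motif TGANTCA was found in CXCL8 alone, against 6.57%, and TATAAA in CXCL8 and CCL20, against 10.7%. The AP-1 match of CXCL8 begins 137 bases before the start, at chr4:73740422-73740448 with its surroundings, and is shown because no other searched member had it.
CXCL8: ggaagtgtgaTGACTCAggtttgccct

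The 120 bases up to the CXCL1 start (chr4:73869273-73869392, plus strand, GRCh38.p14) are printed whole because CXCL1 was the only member that passed the main test. The capitals mark both overlapping matches of the consensus, which is matched on each strand 1 base apart. A match describes these letters and not the binding of a factor.
CXCL1: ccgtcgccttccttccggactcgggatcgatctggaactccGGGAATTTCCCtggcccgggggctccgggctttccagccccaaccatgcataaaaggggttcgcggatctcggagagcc

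The values are normalized read counts, that is, reads per gene divided by a single size factor per library, not scaled for gene length. The libraries held between 27032454 and 74227978 reads, with unsorted replicate 2 the deepest. Libraries of a group differed by 44.1 to 152 times the sampling noise (chi-square per degree of freedom), so none was counted as a second sequencing of another. That measure does not tell whether the libraries came from separate cultures. The line's own genes VIM, CD44, AXL, KRT18 and KRT8 summed to between 153436 and 168285 normalized counts in the unsorted libraries and between 133985 and 157504 in the migratory ones. The sum hides that these genes went in opposite directions. VIM, CD44 and AXL (means of 13427 and 21313) were higher in every migratory library than in any unsorted one. KRT18 and KRT8 (58466 and 41581) were lower in every migratory library. None of the 5 passed the main test, and DESeq2 called AXL higher (adjusted p = 0.0428). ESR1 and PGR, the hormone receptors that the line is known to lack, had no row, and CDH1 lay between 0 and 28.3 normalized counts, while EPCAM, also listed as low in this line, lay between 1512 and 3089.

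All 7 chemokines had a lower mean log2 value in the migratory libraries, a direction that 51.9% of all tested genes shared. The median log2 fold change over the 7 was −1.87, against −0.03 over all tested genes. CXCL1 was the only one to pass the main test (limma, Benjamini-Hochberg adjusted p under 0.05 over all tested genes), which 0.190% of tested genes passed as lower. The values of CXCL1 and CCL2 did not overlap between the groups, a pattern of lower values that 12.5% of all tested genes showed. At an unadjusted p under 0.05, 4 chemokines were lower (CXCL1, CXCL2, CCL2 and CCL20), as were 10.0% of tested genes. On the reads recovered from the table, DESeq2 called 3 chemokines lower (CXCL1, CXCL2 and CCL2) against 3.60% of genes, and edgeR called 0 against 0.108%. These counts describe the 7 genes that had a row, which were chosen with earlier results of these data known. The shares of all genes beside them therefore cannot show the 7 as unusual. CCL20 passed the filter only through its unsorted libraries (means of 70.2 and 9.54 normalized counts). Its lower value follows in part from the filter and supports nothing, but the counts and the median include it. In RNA from pools of cells, fewer cells that make a chemokine and less RNA per cell cannot be told apart.

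**Figure D1:**
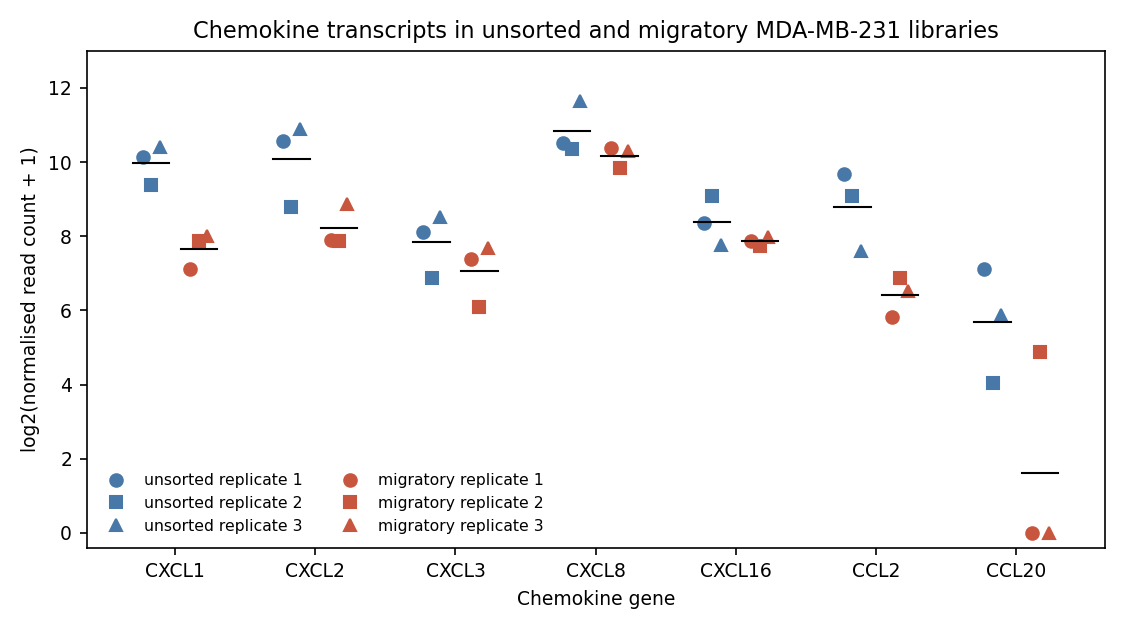
The log2(normalized read count + 1) of the 7 chemokines in each of the 6 libraries, with symbols for single libraries and black lines for the group means of these log2 values. The 3 migratory points lie below the 3 unsorted points for CXCL1 and CCL2, and the groups overlap for the other 5 genes.

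CXCL1 (chr4:73869393-73871242, plus strand, GRCh38) encodes a CXCR2 ligand first described as a growth factor of melanoma cells. It stood at 1124, 670 and 1350 normalized counts in unsorted replicates 1, 2 and 3 and at 138, 232 and 258 in migratory replicates 1, 2 and 3. Even the lowest unsorted library was above the highest migratory library, and unsorted replicate 2 was the low library of its group. The mean went from 1048 ± 346 to 209 ± 62.9 (SD, n = 3 libraries each), 5.01-fold lower. CXCL1 fell by 2.31 on the log2(value + 1) scale (SE 0.35, 95% interval −3.10 to −1.52, limma adjusted p = 0.0407). The adjusted p was 8.96e-08 with DESeq2 and 0.0582 with edgeR. Leaving out any single library of the 6 ended the call, with adjusted p from 0.0608 to 0.209, while the log2 fold change stayed between −2.60 and −2.04.

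CXCL2 (chr4:74097035-74099293, minus strand), a close relative that also acts on CXCR2, stood at 1516, 443 and 1889 normalized counts in the unsorted libraries and at 237, 235 and 464 in the migratory ones. Unsorted replicate 2 was again low and lay below migratory replicate 3, so the groups overlapped. The means were 1283 ± 751 and 312 ± 132 (SD, n = 3 each), a ratio of 4.11. The log2 fold change was −1.87 (SE 0.52, 95% interval −3.02 to −0.72), which missed the threshold with limma (adjusted p = 0.125) and edgeR (0.124). It passed with DESeq2 (adjusted p = 0.00171).

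CXCL3 (chr4:74036589-74038807, minus strand), the third of these near-identical CXCR2 ligands, stood at 274, 117 and 363 normalized counts in the unsorted libraries and at 167, 67.3 and 204 in the migratory ones. Replicate 2 was the lowest library in each group, and the groups overlapped. The means were 251 ± 124 and 146 ± 70.7 (SD, n = 3 each). The log2 fold change of −0.78 had a 95% interval from −1.96 to 0.41 (SE 0.53, limma adjusted p = 0.467), which holds both no difference and a decrease as large as that of CXCL2.

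CXCL8 (chr4:73740506-73743716, plus strand) stood at 1457, 1298 and 3215 normalized counts in the unsorted libraries and at 1338, 916 and 1248 in the migratory ones. The difference in means, 1990 ± 1064 against 1168 ± 222 (SD, n = 3 each), came largely from unsorted replicate 3, and the other 2 unsorted libraries lay close to migratory replicates 1 and 3. Its log2 fold change was −0.66 (SE 0.34, 95% interval −1.43 to 0.10, limma adjusted p = 0.343). That interval does not reach the estimate for CXCL1, although the difference between the genes was not tested.

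CXCL16 (chr17:4733526-4739922, minus strand) stood at 328, 537 and 215 normalized counts in the unsorted libraries and at 234, 210 and 252 in the migratory ones. Migratory values fell inside or just below the unsorted range, with means of 360 ± 163 and 232 ± 20.9 (SD, n = 3 each). The log2 fold change was −0.53 (SE 0.36, 95% interval −1.34 to 0.27, limma adjusted p = 0.463). Of its exon length, 3.04% overlaps MED11 on the opposite strand, and these libraries do not mark strand.

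CCL2 (chr17:34255218-34257203, plus strand) stood at 824, 546 and 193 normalized counts in the unsorted libraries and at 55.5, 117 and 91.2 in the migratory ones. All unsorted libraries were above all migratory ones, but here unsorted replicate 3, which was highest for CXCL1, CXCL2, CXCL3 and CXCL8, was the lowest of its group. The means were 521 ± 316 and 88.0 ± 31.0 (SD, n = 3 each), a ratio of 5.92. The log2 fold change was −2.38 (SE 0.53, 95% interval −3.56 to −1.20). Its estimate was as large as that of CXCL1 with a wider error, and it missed the threshold with limma (adjusted p = 0.0819) and edgeR (0.0879) while it passed with DESeq2 (1.40e-04).

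CCL20 (chr2:227805739-227817564, plus strand) was the scarcest, with 120, 32 and 71 reads in the unsorted libraries and 0, 20 and 0 in the migratory libraries. In normalized counts these were 137, 15.6 and 57.9 against 0, 28.6 and 0, so migratory replicate 2 lay above unsorted replicate 2. A count of 0 allows up to 3.70 normalized counts in migratory replicate 1 and 3.42 in migratory replicate 3 (3 reads each, counting error only). The difference missed the threshold (limma adjusted p = 0.192), and its log2 fold change depended on the pseudocount, from −4.71 with 0.5 and −4.05 with 1 to −2.02 with 10.

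The 7 genes together gave 5660, 3628 and 7282 normalized counts in the unsorted libraries and 2170, 1806 and 2517 in the migratory ones, with no overlap. CXCL8 made up 25.7%, 35.8% and 44.1% of that sum in the unsorted libraries and 61.7%, 50.7% and 49.6% in the migratory ones. CXCL1 made up 19.9%, 18.5% and 18.5% in the unsorted libraries and 6.37%, 12.8% and 10.2% in the migratory ones. For each CXCL8 read there were between 0.420 and 0.771 normalized CXCL1 reads in the unsorted libraries and between 0.103 and 0.253 in the migratory ones. The shares of CXCL2, CXCL3, CXCL16, CCL2 and CCL20 overlapped between the groups. These shares are descriptions, and no test was made on them.

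**Figure D2:**
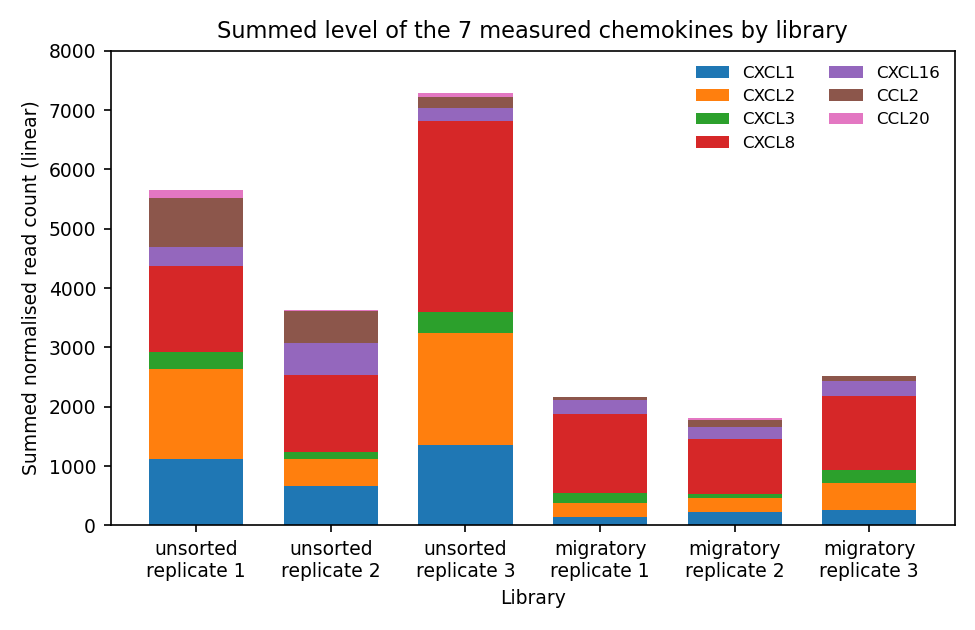
Summed normalized read counts of the 7 chemokines in each library, with each gene's part stacked from 0. The 3 unsorted bars reach 3628 to 7282 and the 3 migratory bars 1806 to 2517, and CXCL8 takes the largest part of each migratory bar.

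Levels between genes were set side by side per kb of exon (GENCODE v29, GRCh38). In the unsorted libraries CXCL8 (875 ± 468 normalized counts per kb), CXCL2 (855 ± 500) and CXCL1 (808 ± 267) led (SD, n = 3 each), and these levels did not differ beyond their spread. CCL2 (262 ± 159) followed, with its highest library at 415 below the lowest of CXCL1, 517, but above the lowest of CXCL2, 295. CXCL16 (129 ± 58.5), CXCL3 (113 ± 56.1) and CCL20 (44.0 ± 38.7) came next, and from CCL2 on each overlapped its neighbours in this order. In the migratory libraries CXCL8 stood alone at 513 ± 97.8 per kb, with its lowest library at 403 above the highest library of CXCL2, 309. CXCL2 (208 ± 87.9) and CXCL1 (161 ± 48.5) followed with overlapping values, then CXCL16 (83.1 ± 7.47) and CXCL3 (65.8 ± 31.9), also overlapping. CCL2 came next (44.3 ± 15.6), within the spread of CXCL3, and CCL20 (5.99 ± 10.4) was lowest.

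The unsorted libraries did not rank the genes' levels alike. Unsorted replicate 2 was lowest for CXCL1, CXCL2, CXCL3, CXCL8 and CCL20 and highest for CXCL16. Unsorted replicate 3 was highest for CXCL1, CXCL2, CXCL3 and CXCL8 and lowest for CCL2 and CXCL16. The unsorted range on the log2 scale was 2.09 for both CXCL2 and CCL2 and 1.01 for CXCL1. CXCL16 ranged over 1.32 in the unsorted libraries and 0.26 in the migratory ones.

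The CXC genes on chromosome 4 resemble each other in sequence, which bears on how reads can be assigned. Coding sequences were identical at 93.5% of aligned bases between CXCL1 and CXCL2, 94.4% between CXCL2 and CXCL3 and 90.7% between CXCL1 and CXCL3, against 55.4% between CXCL1 and CXCL8. Of all 75-base windows of the transcripts, 7.07% in CXCL2 and 4.57% in CXCL3 were found in another gene, nearly all shared between these 2 genes. The share was 0.245% in CXCL1 and 0 in CXCL8, CCL2 and CCL20. The sources used here do not say how shared reads were assigned, so the split between CXCL2 and CXCL3 is the less certain.

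The pentamer ATTTA, the core of AU-rich elements, was counted in the 3′ UTRs. CXCL2 held 10 copies, CXCL8 9, CXCL3 7, CXCL1 5 and CCL20 3, while CCL2 and CXCL16 held 1 each. Per kb of UTR, 0.591% of 11676 genes had at least as many as CXCL2, 1.30% as many as CXCL3, 3.66% as CXCL8, 3.81% as CXCL1 and 4.62% as CCL20, but 33.1% as CCL2 and 60.8% as CXCL16. CXCL1 and CXCL8 had about the same density (7.08 and 7.19 per kb) and log2 fold changes of −2.31 and −0.66. CCL2 had 2.66 per kb and a log2 fold change of −2.38. A link between the pentamer and the differences was not tested.

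Within 1000 kb of the CXCL1 start, 12 tested genes were compared, a set added after the chemokine values were seen. The 4 chemokines there had log2 fold changes from −2.31 to −0.66. Of the other 8, COX18 had a negative log2 fold change (−0.19) and the other 7 positive ones, as had 7594 of all 15786 tested genes. EREG, which encodes the EGF receptor ligand epiregulin, lay at 405, 490 and 474 normalized counts in the unsorted libraries and at 786, 687 and 529 in the migratory ones (log2 fold change 0.53, limma adjusted p = 0.315). Its groups did not overlap, with the migratory libraries higher, as was so for HMGA1P2 and for 1778 of all 15786 tested genes. The neighbouring EGF family genes AREG and BTC had log2 fold changes of 0.11 and 0.05. HMGA1P2, a pseudogene that may share reads with its parent, stood at 1.04 (limma adjusted p = 0.189), and none of these 8 genes passed.

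**Figure D3:**
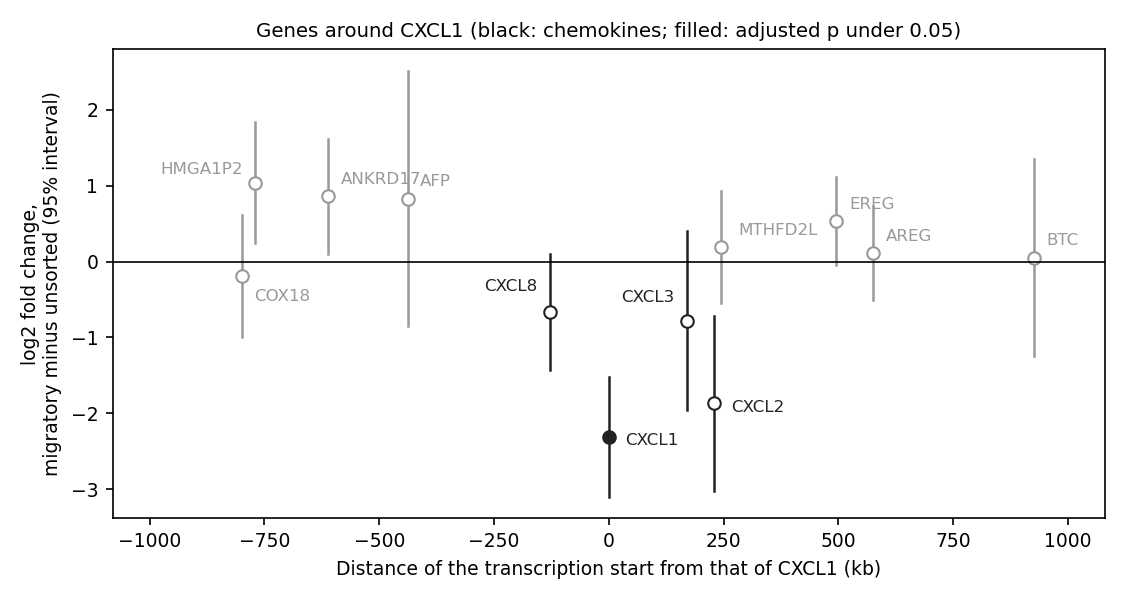
Log2 fold change (migratory minus unsorted, with 95% intervals from limma) of tested genes against their distance in kb from the CXCL1 start. The 4 chemokines lie between −2.31 and −0.66, and the 8 other genes lie between −0.19 and 1.04.

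Other ligands, receptors and regulators were read from 8 lists of 144 genes, of which 84 were tested. With limma 0 passed, and with edgeR 0 passed. At an unadjusted p under 0.05, 21 were lower and 4 higher in the migratory libraries, against 10.0% and 7.70% of all tested genes. DESeq2 called 10 lower and 1 higher, against 3.60% and 2.31% of all tested genes. CXCL11, CXCL14, CXCR6, CCR2, MMP9 and CSF3 passed the filter on low values only through their unsorted libraries, so their lower values follow in part from the filter and support nothing. The counts and medians of the lists include them, with CXCL11 and CSF3 among the 21 and CXCR6 among the 10. Of the 38 other chemokine ligands listed, 6 were tested and had lower values, CXCL11 and CXCL14 among them, with a median log2 fold change of −1.28. Lower values were found for 51.9% of all tested genes. At an unadjusted p under 0.05, 3 were lower (CX3CL1, CCL26 and CXCL11), and DESeq2 called CX3CL1 and CCL26. CX3CL1, a membrane-bound chemokine, stood at 285, 280 and 135 normalized counts in the unsorted libraries and at 110, 65.8 and 34.2 in the migratory ones (log2 fold change −1.80, limma adjusted p = 0.128). CCL26, a ligand of CCR3, stood at 1662 ± 536 and 848 ± 144 (SD, n = 3 each; log2 fold change −0.93, limma adjusted p = 0.140). CXCL11, a CXCR3 ligand, had a log2 fold change of −3.48 at few reads (limma adjusted p = 0.189). CXCL14 had at most 56 reads in a library and overlapping groups (log2 fold change −1.62, limma adjusted p = 0.637).

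Those receptors of the chemokines that had a row gave few reads. CXCR1, CXCR2, CXCR3 and CCR6 had no row and were not analysed here. CCR2, the CCL2 receptor, stood at 0, 27.4 and 34.3 normalized counts in the unsorted libraries and at 0, 8.59 and 10.3 in the migratory ones. CXCR6, the CXCL16 receptor, stood at 59.4, 26.4 and 0 in the unsorted libraries and at 0 in all migratory libraries, which each allow up to 3.42 to 4.29.

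Of 7 tested receptors (of 23 listed), 6 had lower values, a direction that 51.9% of all tested genes shared, and 1 had higher values. CXCR6 and CCR2, among the 6, passed the filter only through their unsorted libraries. DESeq2 called ACKR3 and CXCR6 (adjusted p = 0.0412) lower, against 3.60% of all tested genes. CXCR6 had reads in unsorted replicates 1 and 2 alone. ACKR3, a scavenging receptor that takes up CXCL12 and CXCL11, stood at 1028, 786 and 926 normalized counts in the unsorted libraries and at 538, 405 and 314 in the migratory ones. The groups did not overlap, a pattern of lower values that 12.5% of all tested genes showed. The log2 fold change of ACKR3 was −1.15 (SE 0.28, limma adjusted p = 0.101, DESeq2 adjusted p = 0.00546). CXCR4, the signalling receptor for CXCL12, was the receptor with higher values, at 575, 592 and 584 against 1340, 886 and 772. Its log2 fold change of 0.73 (SE 0.27) missed the threshold (limma adjusted p = 0.204, DESeq2 adjusted p = 0.0768). All migratory libraries were above all unsorted ones, a pattern that 1778 of all 15786 tested genes showed. CCRL2, a non-signalling chemerin-binding receptor, had overlapping groups (log2 fold change −0.42, limma adjusted p = 0.370).

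**Figure D4:**
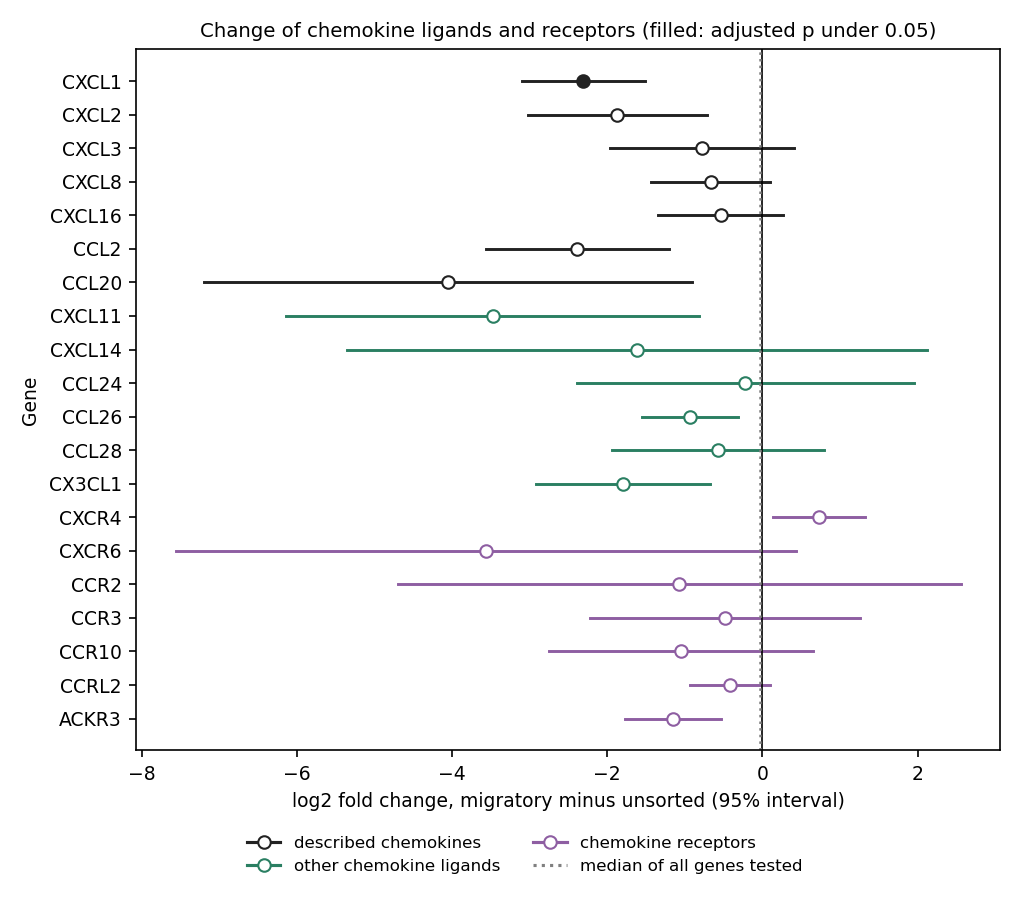
Log2 fold change (migratory minus unsorted, log2(value + 1) scale) of the 7 chemokines (black), the 6 other tested chemokine ligands (green) and the 7 tested chemokine receptors (purple), with 95% intervals from limma and a dotted line at the median of all tested genes (−0.03). CXCL1 carries the only filled point (adjusted p under 0.05), and CXCR4 is the only point above 0. The intervals of CXCL3, CXCL8, CXCL16, CXCL14, CCL24, CCL28, CXCR6, CCR2, CCR3, CCR10 and CCRL2 reach across 0.

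Among 15 tested NF-kB genes, 10 had lower and 5 higher values (median log2 fold change −0.41), against 51.9% lower among all tested genes. At an unadjusted p under 0.05, 5 were lower, and DESeq2 called 2 lower, against 10.0% and 3.60% of all tested genes. BCL3, a nuclear IkB family protein, stood at 3088, 2081 and 3713 normalized counts in the unsorted libraries and at 717, 917 and 1310 in the migratory ones (log2 fold change −1.60, limma adjusted p = 0.0618). NFKBIA, the inhibitor IkB-alpha and itself an NF-kB target, stood at 30580 ± 3794 and 16965 ± 5080 (SD, n = 3 each; log2 fold change −0.88, limma adjusted p = 0.101). NFKB2 and NFKBIZ had log2 fold changes of −0.82 and −1.03 (limma adjusted p = 0.182 and 0.203).

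Regulators of mRNA decay were mixed, with 4 of 10 lower and 6 higher (median log2 fold change 0.13), against 51.9% lower among all tested genes. ZC3H12A (regnase-1), an RNase that cuts cytokine messages, stood at 1153, 1308 and 1487 normalized counts in the unsorted libraries and at 218, 548 and 448 in the migratory ones. Its log2 fold change of −1.79 missed the threshold with limma (adjusted p = 0.0685) and passed with DESeq2 (1.39e-04). ZFP36, ZFP36L2 and ZFP36L1 encode proteins that bind AU-rich elements. Their log2 fold changes were −0.67, −0.91 and 0.57 (limma adjusted p = 0.251, 0.191 and 0.199).

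Cytokines made alongside chemokines were also mixed, 6 of 10 lower and 4 higher (median log2 fold change −0.50), against 51.9% lower among all tested genes. IL6, a pleiotropic inflammatory cytokine, stood at 2315, 1076 and 2570 normalized counts in the unsorted libraries and at 908, 298 and 548 in the migratory ones (log2 fold change −1.81, limma adjusted p = 0.103, DESeq2 adjusted p = 0.00232). In the other direction, IL24 of the IL-10 family stood at 185, 109 and 154 against 670, 368 and 288 (log2 fold change 1.50, limma adjusted p = 0.109, DESeq2 adjusted p = 0.00708). CSF1, the macrophage growth factor, stood at 47006 ± 6967 and 26019 ± 7179 (SD, n = 3 each; log2 fold change −0.88, limma adjusted p = 0.104), and CSF3 had few reads and a log2 fold change of −3.10 (limma adjusted p = 0.221).

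Of 18 tested genes of IL-1, TNF and Toll-like receptor signalling, 13 had higher values (median log2 fold change 0.15). Higher values were found for 7594 of all 15786 tested genes. At an unadjusted p under 0.05, 2 of the 18 were lower and 0 higher, against 10.0% and 7.70% of all tested genes. The smallest p-values were those of TNFRSF1B (log2 fold change −0.83), IL1R1 (−0.62), TLR4 (1.01) and TLR3 (0.68). Their limma adjusted p ran from 0.229 to 0.301. Of 12 interferon pathway genes 9 had lower values (median −0.39), against 51.9% of all tested genes. At an unadjusted p under 0.05, 2 were lower, and DESeq2 called 1 lower (IFNGR1, adjusted p = 0.0249), against 10.0% and 3.60%. Log2 fold changes were −0.70 for IFNGR1, −0.72 for IRF1, 0.49 for JAK1 and −0.54 for STAT2 (limma adjusted p = 0.128, 0.199, 0.292 and 0.366). Of 6 proteases that trim or shed chemokines, 4 had lower values (median −0.17), against 51.9% of all tested genes. The collagenase MMP1 stood at 1414 ± 747 and 654 ± 205 (SD, n = 3 each; log2 fold change −1.04, limma adjusted p = 0.199). MMP9, MMP14 and DPP4 had log2 fold changes of −1.29, 0.34 and −0.25 (limma adjusted p = 0.591, 0.599 and 0.699).

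Markers of other cell types that make chemokines were summed beside these results. Of 7 leukocyte markers LYZ and CSF1R had a row, and PTPRC, CD68, CD3E and ITGAM were among those with none. The leukocyte sum ranged from 493 to 585 normalized counts in the unsorted libraries and from 253 to 577 in the migratory ones. It was nearly all CSF1R (468 to 568 and 248 to 568). The sum of 5 of 6 fibroblast markers ranged from 2772 to 4183 and from 818 to 2111, and that of 3 of 5 endothelial markers from 1297 to 1878 and from 640 to 976. COL1A2 was the largest part of the fibroblast sum in each unsorted library (1144 to 2780), and it stood at 302 to 1081 in the migratory ones. The endothelial sum was nearly all PECAM1 (1225 to 1850 and 562 to 942), while KDR had a higher mean in the migratory group (27.8 ± 24.0 and 53.8 ± 19.9, SD, n = 3 each, with overlap). The fibroblast and endothelial sums were lower in the migratory group like the chemokines, and their part in the chemokine differences was not tested.

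For each of the 6 members with a mean of at least 50 over the libraries, the genes with the most similar profile were sought among 12380 others. Likeness was the root mean square difference of log2(value + 1) over the 6 libraries after subtracting each gene's mean, and it is a description. For CXCL1 these were GGT1 (0.200), ATG16L2 (0.269) and ZNF467 (0.290), and for CXCL2 NDRG4 (0.191), NPAS1 (0.356) and TMEM121 (0.364). GGT1, a gamma-glutamyltransferase with close gene copies, stood at 2223, 1244 and 1937 normalized counts in the unsorted libraries and at 280, 501 and 555 in the migratory ones (limma adjusted p = 0.0498). For CXCL3 they were SNX10 (0.216), ERO1B (0.250) and ARMC4 (0.251), for CXCL8 RP6-91H8.3 (0.130), RGS14 (0.141) and B3GNT8 (0.146), for CXCL16 SCUBE3 (0.109), CCT6P1 (0.141) and MLKL (0.158), and for CCL2 NOMO1 (0.389), SLC7A4 (0.395) and SCG2 (0.431). CXCL1 and CXCL2 were each other's nearest chemokine at 0.492, at place 42 for CXCL1 and place 18 for CXCL2 among all genes. The nearest chemokine to CXCL16, CXCL8, came at place 10404, with a difference of 0.782.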

How the data were processed

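RNA from 6 libraries of MDA-MB-231 cells, 3 migratory and 3 unsorted, was amplified with a SMART-seq kit and tagmented with Nextera XT, per the labels' protocols; this chemistry does not mark strand and has no molecular identifiers. The deposited values are a signal, read counts divided by 1 size factor per library by the authors. HISAT2, HTSeq and DESeq2 with hg38 and GRCh38.p7 are named per the submitters' processing notes; the sources used here give no versions, roles, annotation or rule by which genes were entered. All values came out whole within 0.01 read when divided by the step of their library.

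The main test was limma 3.58.1 with an intensity trend (R 4.3.3) on log2(value + 1) with group alone, for genes with a mean of at least 10, two-sided, Benjamini-Hochberg over 15786 genes, threshold 0.05. edgeR 4.0.16 (quasi-likelihood) and DESeq2 1.42.0 on the recovered reads, other pseudocounts, filters and scalings, array weights, a replicate block and leaving out each library were alternatives. Scripts were tested on simulated data. Counting floors cover counting error only.

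The members and lists were chosen with earlier results of these data known. Members were given in every sample; from each list up to 4 tested genes with the smallest p were named, with the members' receptors and the 3 genes likest each member. Some listed genes are not reported here. Gene positions and lengths came from GENCODE v29 (GRCh38), which matched 13962 symbols (85.9%), and promoters from RefSeq (GRCh38.p14). Coding identity was given in place of protein identity, and no proteins were used here.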

Additional observations from a re-analysis of the deposited data

How the results depend on the processing

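Over 17 alternatives, all 118 log2 fold changes of the chemokines stayed below 0 (CCL20 could not be fitted with the filter at a mean of 50), and the median of all genes moved by less than 0.1. CXCL1 kept its call under 9 alternatives and lost it under 8: edgeR, no intensity trend (adjusted p = 0.112) and each of the 6 left-out libraries. The ranges were −2.60 to −2.04 for CXCL1, −2.51 to −1.47 for CXCL2, −2.98 to −1.94 for CCL2, −5.68 to −2.02 for CCL20, −1.25 to −0.30 for CXCL3, −0.93 to −0.26 for CXCL8 and −0.86 to −0.20 for CXCL16. Against 1 chemokine past the threshold there were 3 with DESeq2, 2 with array weights and 0 with edgeR, without the trend and without any single library (0 to 0).

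Genes higher and lower numbered 7 and 30 in the main fit, 364 and 569 with DESeq2, 198 and 309 with array weights, 4 and 17 with edgeR, 17 and 61 with the filter at 50, 19 and 78 with pseudocount 10, 9 and 66 with upper-quartile scaling, and 4 and 25 with pseudocount 0.5. Leaving out a library gave 1 to 5 higher and 0 to 39 lower. Listed related genes past the threshold (0 in the main fit) were 10 lower and 1 higher with DESeq2, 5 lower with array weights and 2 lower with each of the filter at 50, pseudocount 10 and upper-quartile scaling. With the replicate number as a block 24 genes were higher and 90 lower, 5 listed related genes were lower and CXCL1 had an adjusted p of 0.0287. Same-numbered libraries correlated at 0.117, 0.108 and 0.0369 in their deviations, and differently numbered ones at −0.162 to 0.0723. Replicates 1 and 2 correlated best with their own number, and replicate 3 did not. These values do not settle whether the numbers pair the samples, and the main fit did not pair them. The cause of these changes was not tested. Depth limits CCL20, at 0 to 120 reads per library.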
